A study of Caenorhabditis elegans with 2 samples.

Results

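Proteasome subunit genes are the protein-coding genes of Caenorhabditis elegans whose symbols begin with pas-, pbs-, rpn- or rpt- and a digit, and 33 of the 19973 protein-coding genes of the nuclear chromosomes met that rule. They were examined in a chromatin immunoprecipitation sequencing (ChIP-seq) experiment on NHR-43, a nuclear hormone receptor. The animals were hermaphrodite L3 larvae of strain OP477 (unc-119(tm4063) III; wgIs477), taken 36.5 h after release from starvation at L1, and they carried an integrated transgene for NHR-43 fused at its C terminus to GFP and FLAG. The 2 samples are biological replicates of this single group, precipitated with an anti-GFP antibody, so no condition can be compared with another. The labels do not give the level of the transgene or the state of the animals' own nhr-43 gene. Whole larvae were used, and strong binding in few cells cannot be told apart from weak binding in many.

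The proteasome degrades proteins that carry ubiquitin chains. Its core particle is a barrel of alpha rings, which gate the entry, and beta rings, which hold the proteolytic sites. Its regulatory particle has a base, with a ring of ATPases that unfold substrates, and a lid, which removes ubiquitin. In C. elegans the transcription factor SKN-1 raises the expression of proteasome genes when proteasome function is impaired.

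NHR-43 peaks were found at 17 of the 33 proteasome genes. These 17 genes, or 51.5%, had a summit of the thresholded peak list inside the promoter window, a stretch that reached 1000 bp upstream and 200 bp downstream of each gene's annotated 5' end, against 10.1% of all protein-coding genes. Each of the 17 genes had its own peak, and all 17 summits lay upstream. Their peaks lay on both sides of the middle of the list. The signal, the authors' own measure of peak strength, had a median of 87.5 and ran from 61.4 to 405, against a median of 120 over the 1645 thresholded peaks in any promoter window, and 8 of the 17 exceeded that median. The members' median was above that 120, which was not recomputed, in both other windows tried, at 131 in a narrower one and 128 in a wider one. These are medians over other sets of peaks. The narrower window dropped the peaks of pas-1, pas-5, rpn-8 and rpt-3, with signals of 70.8 to 87.5. The wider one took in summits outside the promoter window. Among the 1944 highest peaks of the thresholded list, 8 of 33 members (24.2%) had a summit in the window, against 5.85% of all genes. In the relaxed list called on the pooled reads, which has a lower bar, 27 of 33 (81.8%) had one, against 34.8% of all genes. Genes are not replicates and only 1 group was sampled, so these shares are descriptions and no test was made.

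**Figure D1:**
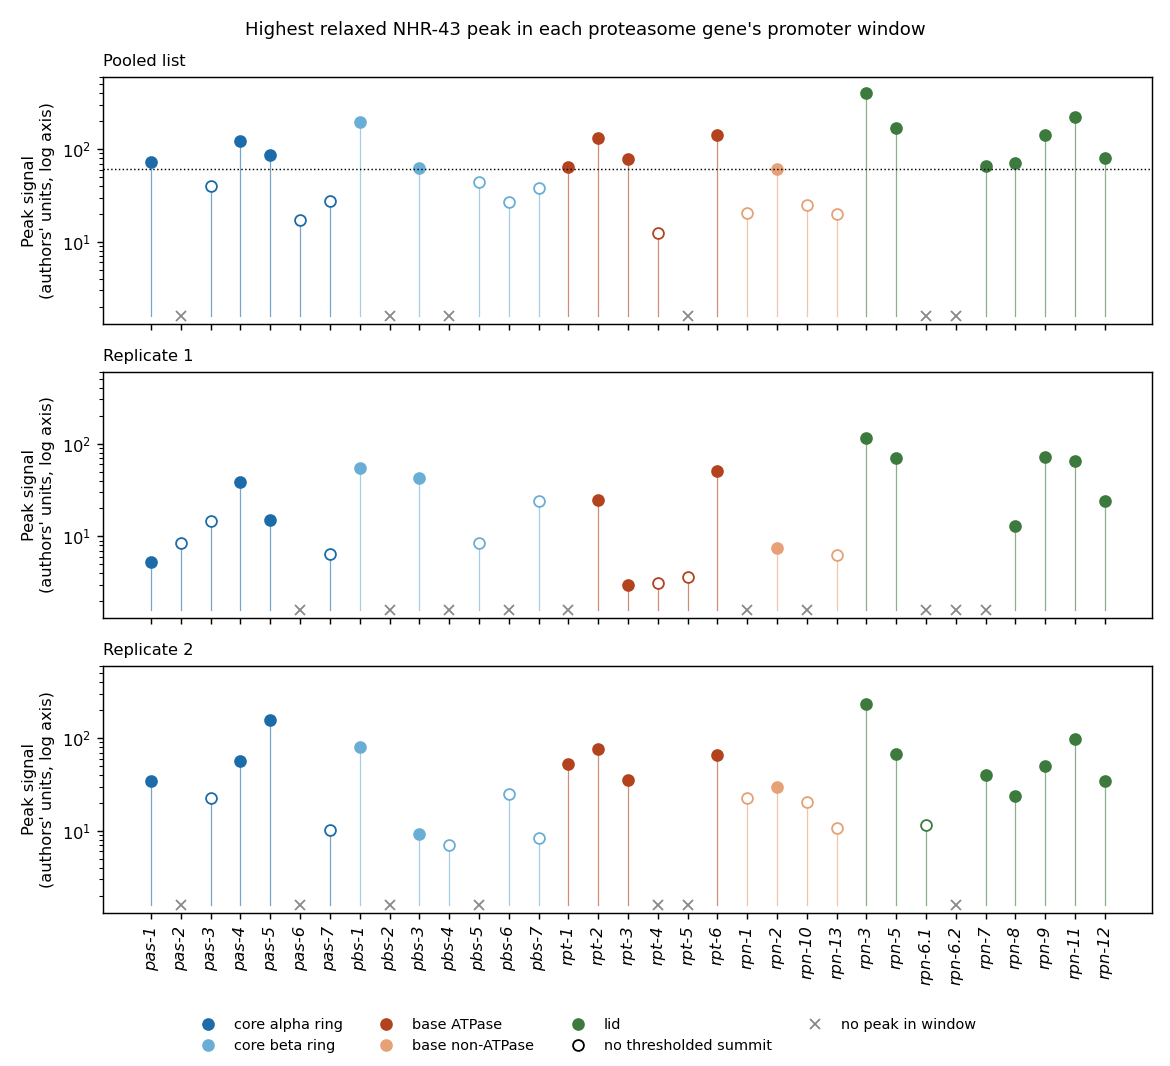
Signal of the highest relaxed peak in the promoter window of each of the 33 proteasome genes, in the pooled list and in each replicate (log axes, the authors' units, scales not comparable between lists). Filled points are the 17 genes with a thresholded summit, open points the other 16, crosses mark genes with no peak in the window, and the dotted line is the lowest thresholded signal, 61.4. The highest point in all 3 panels is rpn-3, and a replicate's highest peak in a window need not be the partner of the thresholded one, as at pas-5.

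Among the genes that met the symbol rule, the lid had the highest share with a thresholded summit in the promoter window. The order of the parts changed with the list used and with the way summits were assigned. The rule leaves out dss-1, a lid subunit gene counted below with other pathway genes, which had no thresholded summit. The regulatory particle had 12 of 19 genes with a thresholded summit (63.2%) and the core particle 5 of 14 (35.7%). By part, the counts were 7 of 9 for the lid (77.8%), 4 of 6 for the base ATPases (66.7%), 1 of 4 for the other base subunits (25%), 3 of 7 for the alpha ring (42.9%) and 2 of 7 for the beta ring (28.6%). In the relaxed pooled list the lid was not highest, with 4 of 4 other base subunits, 6 of 7 alpha, 5 of 6 ATPase, 7 of 9 lid and 5 of 7 beta genes. The lid genes with a relaxed pooled summit were the 7 with a thresholded one, while every other part gained genes. Among the 3889 highest peaks of replicate 1 the lid had 5 of 9, the beta ring 3 of 7, the ATPases 2 of 6, the alpha ring 1 of 7 and the other base subunits 0 of 4. In replicate 2 these were 5 of 9 for the lid, 3 of 6 for the ATPases, 2 of 7 for the alpha ring, 1 of 7 for the beta ring and 0 of 4 for the other base subunits. The regulatory particle had 36.8% and the core particle 28.6% in replicate 1, and they had 42.1% and 21.4% in replicate 2. In the relaxed pooled list they had 84.2% and 78.6%. When each thresholded summit was given to the nearest 5' end within 2000 bp, the lid lost rpn-7 and rpn-8. No ATPase gene was lost, so the share of the lid fell below that of the ATPases. The parts hold only 4 to 9 genes each, and their differences were not tested.

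The highest member peak and the next one were both at lid genes. The peak of rpn-3, a structural lid subunit, had a signal of 405 and rank 223 among the 3889 thresholded peaks, the highest of all members, with 116 in replicate 1 (rank 347 of 29315) and 234 in replicate 2 (rank 221 of 30000). It lay at chrIII:8447050-8447279 in the WBcel235 assembly, between genes and 196 bp upstream of the 5' end. The same summit lay 248 bp upstream of hsp-110, a chaperone gene that is transcribed the other way. Next came rpn-11, the subunit that cuts ubiquitin off the substrate, with a pooled signal of 225 (rank 673), 64.6 in replicate 1 and 99.0 in replicate 2. Its summit, in the peak at chrII:4044466-4044664, was the closest of all to a 5' end, at 7 bp upstream. The structural subunit genes rpn-5 and rpn-9 had pooled signals of 170 and 142, below the 196 of the core gene pbs-1. In replicate 1 rpn-5 reached 70.3 and rpn-9 71.8, and in replicate 2 they reached 66.8 and 50.4. Both peaks ranked higher in replicate 1, at 718 and 701, than in replicate 2, at 1791 and 2554.

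The remaining lid peaks were weaker. The peak of rpn-12 had a signal of 81.3 (24.1 in replicate 1 and 34.6 in replicate 2) and lay 161 bp upstream, between rpn-12 and the divergent gene rad-23, whose product carries ubiquitinated proteins to the proteasome. At rpn-8, the partner of rpn-11, the summit had a signal of 70.8 (12.9 and 23.5 in replicates 1 and 2) and lay 795 bp upstream, inside a coding exon of the mitochondrial ribosomal protein gene mrps-6, whose 5' end was the nearest, 250 bp away. The peak of rpn-7 had a signal of 65.4 and was seen in replicate 2 (39.6) but had no partner in replicate 1, where the rpn-7 window held no relaxed peak at all. It lay 43 bp upstream of the divergent gene F49C12.9 and 373 bp upstream of rpn-7. Of the lid genes that met the symbol rule, the 2 with no thresholded summit were rpn-6.1, a structural subunit, and its paralogue rpn-6.2. The rpn-6.1 window held a single relaxed peak, in replicate 2 (signal 11.7, rank 17188), and the rpn-6.2 window held none in any list.

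Among the base ATPase genes, rpt-6 and rpt-2 had the higher peaks. The rpt-6 peak, 237 bp upstream, had a pooled signal of 142, with 50.7 in replicate 1 and 65.4 in replicate 2. The rpt-2 peak, 142 bp upstream of rpt-2 and 159 bp upstream of the divergent gene aps-1, had 131, with 24.4 and 76.4 in replicates 1 and 2. Its summit also lay within the noncoding RNA gene F29G9.10. The other 2 were weak or missing in replicate 1. At rpt-3 the summit lay 683 bp upstream in an exon of chtb-2, outside the coding sequence, with a pooled signal of 77.5, and it was among the weakest peaks of replicate 1 (2.94, rank 26681) but not of replicate 2 (35.6, rank 3944). At rpt-1 the pooled signal was 64.0, replicate 2 gave 52.1 and the window held no relaxed peak in replicate 1. Of the 2 ATPase genes with no thresholded summit, rpt-4 had a relaxed pooled peak of 12.4 and rpt-5 had none.

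The other base genes were near or below the limit of the thresholded list. The gene of the scaffold subunit rpn-2 had the last peak of that list, with a signal of 61.4 and rank 3889 of 3889 (6.01 in replicate 1, 29.9 in replicate 2), 334 bp upstream. The other scaffold gene, rpn-1, and the ubiquitin receptor genes rpn-10 and rpn-13 had relaxed pooled peaks of 20.5, 24.9 and 19.9.

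In the core particle the highest peak was at pbs-1, which encodes the beta subunit with caspase-like activity. It had a pooled signal of 196 (rank 838), with 54.6 in replicate 1 and 80.8 in replicate 2, at chrIV:1709869-1710045, 219 bp upstream of pbs-1 and 301 bp upstream of the divergent K08D12.3. The replicates stood apart at the noncatalytic gene pbs-3. Its peak, in an exon of ulp-2 outside the coding sequence and 198 bp upstream, had 62.6 in the pooled list, ranked 1389 in replicate 1 (42.4) and ranked only 21675 in replicate 2 (9.33). The other catalytic subunit genes had no thresholded summit. The window of pbs-2, for the trypsin-like site, held no peak in any list, and that of pbs-5, for the chymotrypsin-like site, held a relaxed pooled peak of 43.9 downstream of the 5' end, the highest among the 16 members without a thresholded summit. The relaxed pooled peaks of pbs-6 and pbs-7 had 26.9 and 38.2, and pbs-4 had a relaxed peak in replicate 2 alone (7.06).

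Of the alpha ring genes, pas-4 had the highest peak, with a pooled signal of 121 (39.0 in replicate 1 and 56.6 in replicate 2), 102 bp upstream and 175 bp upstream of the divergent gene rpb-3, which encodes a subunit of RNA polymerase II. This summit also fell in the noncoding RNA gene C36B1.16. The other 2 were distal. At pas-5 the summit lay 907 bp upstream within the snoRNA gene F25H2.15, with 87.5 in the pooled list. The partners stood far apart in signal, at 12.1 (rank 6448) in replicate 1 and 158 (rank 464) in replicate 2. In replicate 2 the summit was shifted by 93 bp to 1000 bp upstream, and in replicate 1 by 27 bp. Whether the 2 values belong to the same site was not tested. The pas-1 summit, with 73.6 (5.25 and 22.8 in replicates 1 and 2), lay 933 bp upstream of pas-1 but 247 bp upstream of rpoa-12, an RNA polymerase I subunit gene on the same strand. The alpha genes with no thresholded summit were pas-2, with no relaxed pooled peak, and pas-3, pas-6 and pas-7, with relaxed pooled peaks of 40.0, 17.4 and 27.8.

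Most summits were proximal. The 17 lay 7 to 933 bp upstream with a median of 219 bp, against 250 bp over all 2114 pairs of a gene and a thresholded summit. At 13 of the 17 (76.5%) the summit was within 400 bp of the 5' end, against 69.0% of all pairs. The other 4, at rpt-3, rpn-8, pas-5 and pas-1, were between 683 and 933 bp away. For 14 of the 17 genes the proteasome gene had the nearest protein-coding 5' end, and the exceptions were pas-1, rpn-7 and rpn-8. Summits lay between protein-coding genes at 14 loci. In C. elegans many transcripts are trans-spliced, so an annotated 5' end need not be the start of transcription.

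**Figure D2:**
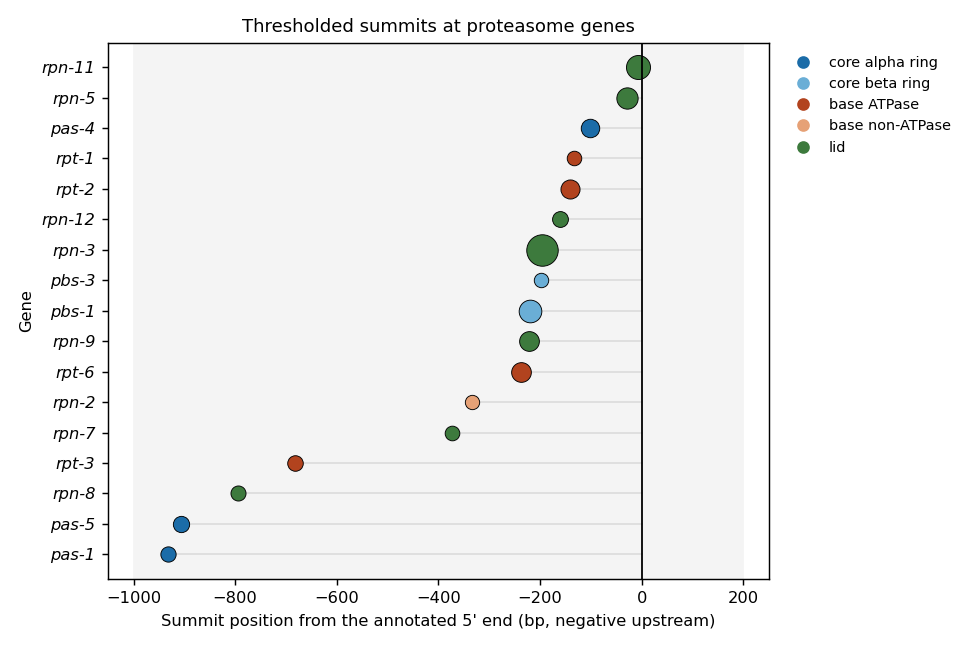
Position of the 17 thresholded summits relative to the annotated 5' end of each proteasome gene (bp, negative upstream). The area of a point grows with the pooled signal, colours mark the part of the proteasome, and the grey band is the promoter window. The points for 13 genes lie within 400 bp of the 5' end, and the 4 distal ones are all small.

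The genes often face another gene. A divergent protein-coding neighbour was the next gene upstream for 23 of the 33 members (69.7%), against 46.2% of all genes. Of those 23 members 11 had a thresholded summit, and of the 10 with a same-strand neighbour 6 had one. Over all genes the shares were 13.4% with a divergent and 7.18% with a same-strand neighbour. Of the 17 peaks 11 (64.7%) also lay in the promoter window of another protein-coding gene, against 26.9% of all promoter peaks, and for these the signal cannot be assigned to 1 gene. The other 6 peaks, at pas-5, pbs-3, rpn-11, rpt-1, rpt-3 and rpt-6, were in no other window.

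The 8 weakest member peaks, with signals of 61.4 to 81.3, all had a width of 324 bp, the most frequent width of the list, while the 9 with signals of 87.5 to 405 were 82 to 230 bp wide. Over all nuclear thresholded peaks the median signal was 80.0 at 324 bp, 164 at smaller widths and 312 at larger ones, and no member peak was wider than 324 bp. Of all promoter peaks, 43.5% had that width.

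Both replicates carried a relaxed summit within 100 bp of the thresholded one at 15 of the 17 genes (88.2%), against 82.9% of all promoter peaks. Replicate 2 had one at all 17 and replicate 1 at 15, missing rpn-7 and rpt-1. When only the 3889 highest peaks of each replicate were used, 10 of the 17 had a partner in replicate 1, 11 in replicate 2 and 8 in both. Those 8 were pas-4, pbs-1, rpn-3, rpn-5, rpn-9, rpn-11, rpt-2 and rpt-6, the same 8 genes that had peaks among the 1944 highest of the thresholded list. Taken by itself, each replicate's highest peaks placed a summit in the window of 11 of 33 members (33.3%), against 9.81% of all genes in replicate 1 and 9.52% in replicate 2. In replicate 1 this included pbs-7, whose peak (24.0, rank 2707) did not reach the thresholded list. Over the 15 genes with partners in both, the signals of the replicates had a Spearman's rho of 0.51, against 0.67 over all 1364 such promoter peaks. These peaks share the 2 libraries, and the values are given without a test.

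**Figure D3:**
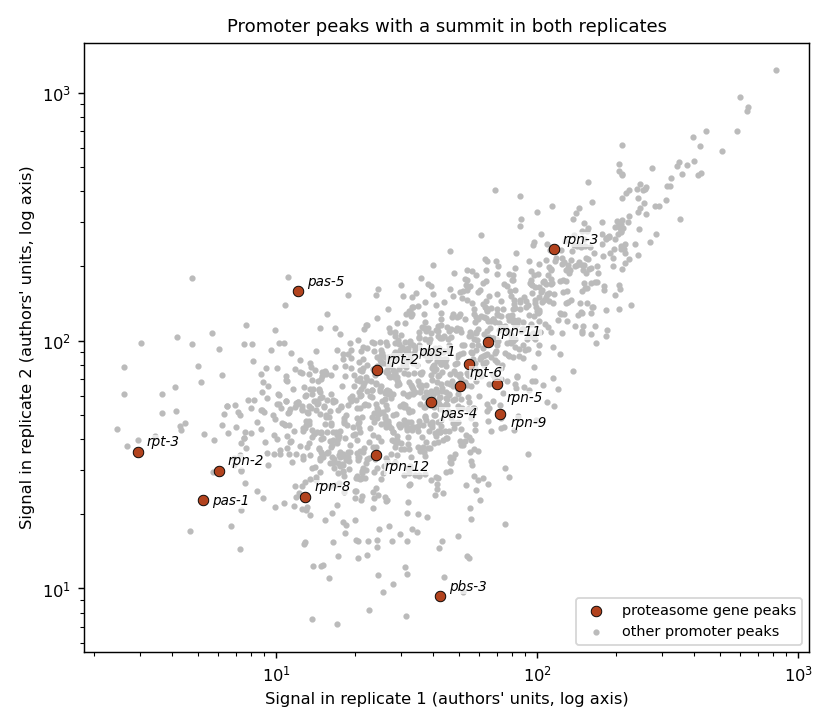
Signal in replicate 1 and replicate 2 of the 1364 promoter peaks with a summit within 100 bp in both (log axes, the authors' units). The 15 proteasome gene peaks are labelled, with rpn-3 high in both, pas-5 high in replicate 2 alone and pbs-3 low in replicate 2. At pas-5 the replicate 2 summit lay 93 bp from the thresholded one, so its 2 values need not belong to the same site.

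The sequences at 6 summits are given because they show the words that most members had in common and 1 strong member that had none. Each is read 5' to 3' on the strand of the proteasome gene, from the RefSeq copy of WBcel235, and covers 75 bp to either side of the summit, shortened where an exon of a protein-coding gene begins. Capitals mark matches to the fixed motifs on either strand, which here are the SKN-1 core words ATGAC and ATGAT, the TATA-type word TATAAA and the Sp1-type word CCGCCC. On the opposite strand the first SKN-1 word reads GTCAT, and the other one reads ATCAT.
rpn-3, chrIII:8447082-8447232, plus strand: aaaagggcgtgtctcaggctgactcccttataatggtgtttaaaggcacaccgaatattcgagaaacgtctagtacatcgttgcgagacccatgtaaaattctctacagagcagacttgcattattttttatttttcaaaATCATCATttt
rpn-7, chrIV:9316216-9316333, plus strand: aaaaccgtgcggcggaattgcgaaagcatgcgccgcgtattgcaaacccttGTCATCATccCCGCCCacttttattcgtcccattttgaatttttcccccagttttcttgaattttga
rpn-11, chrII:4044547-4044628, minus strand: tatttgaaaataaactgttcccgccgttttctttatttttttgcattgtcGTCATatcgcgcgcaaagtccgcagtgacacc
rpt-2, chrV:6017736-6017886, minus strand: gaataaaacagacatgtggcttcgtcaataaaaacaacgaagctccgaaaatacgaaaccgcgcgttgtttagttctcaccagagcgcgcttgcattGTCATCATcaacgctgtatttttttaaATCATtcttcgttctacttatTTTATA
rpt-6, chrIII:12370144-12370294, plus strand: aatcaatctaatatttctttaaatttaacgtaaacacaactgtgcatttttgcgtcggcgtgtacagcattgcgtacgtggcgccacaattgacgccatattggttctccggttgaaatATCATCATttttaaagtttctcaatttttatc
rpn-5, chrII:4698428-4698531, minus strand: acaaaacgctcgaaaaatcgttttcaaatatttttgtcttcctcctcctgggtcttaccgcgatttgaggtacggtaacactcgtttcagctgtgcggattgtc

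At rpn-3, the strongest member, and at rpt-6 the capitals form a tandem ATCATCAT, and at rpn-7 and rpt-2 they form GTCATCAT. The rpn-11 sequence had a single GTCAT, and that of rpn-5 had no match. In all, 14 of the 17 summit windows (82.4%) held ATGAC or ATGAT within 75 bp on either strand, against 43.2% of the 1645 promoter summits and 48.6% of all 3870 nuclear thresholded summits. These motifs, fixed for the counts, were chosen with earlier results of the data known, so the contrast is not an independent one. By word, ATGAC was found at 8 of 17 (47.1%), against 23.8% of promoter summits, and ATGAT at 9 of 17 (52.9%), against 28.3%. The windows without either were those of pbs-3, rpn-5 and rpn-9. In windows of the same length centred 219 bp upstream of every gene, whether or not it had a peak, 18 of the 33 members (54.5%) held one of these words, against 45.6% of all 19973 genes. The gap between member summits and these fixed windows depended on the window size. Within 50 bp, ATGAC was at 35.3% of member summits and in 15.2% of the members' fixed windows, and ATGAT at 41.2% and 27.3%. Within 150 bp these shares were 52.9% and 57.6% for ATGAC, and 76.5% and 72.7% for ATGAT. The words share 4 of their 5 letters and may overlap.

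Of the 9 fixed motifs, 5 had no match within 75 bp of the proteasome gene summits, and within 150 bp GAGAGA and the nuclear receptor core each had 1 match. The GAGA-type word GAGAGA occurred at 0 of 17 summits, which allows a share of up to 17.6% (3 counts of 17, counting error only), against 25.8% of promoter summits. That limit treats the 17 windows as independent draws, and GAGAGA was 1 of 9 motifs, so whether the word was depleted was not tested. GAGAGA was not absent from the promoters themselves, since 4 of the 33 fixed windows held it (12.1%), against 10.5% of all genes. The EOR-1-like word CTGCGTCTC (7.90% of promoter summits), the nuclear receptor core AGGTCA (5.41%), the E-box CACGTG (7.05%) and the E2F-type word GCGCGAAA (2.61%) were likewise at 0 of 17, and for these the limit of 17.6% lies above the share at other summits. Matches to the Sp1-type word CCGCCC were found at rpn-7 and pbs-3 (11.8%, against 9.42%), and to TATAAA at pas-5, rpn-8 and rpt-2 (17.6%, against 10.9%). The G+C content of the 17 windows was 39.1% ± 4.05, against 43.4% ± 6.89 at all promoter summits (SD over 17 and 1645 windows). The part that base composition has in the motif shares was not tested.

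**Figure D4:**
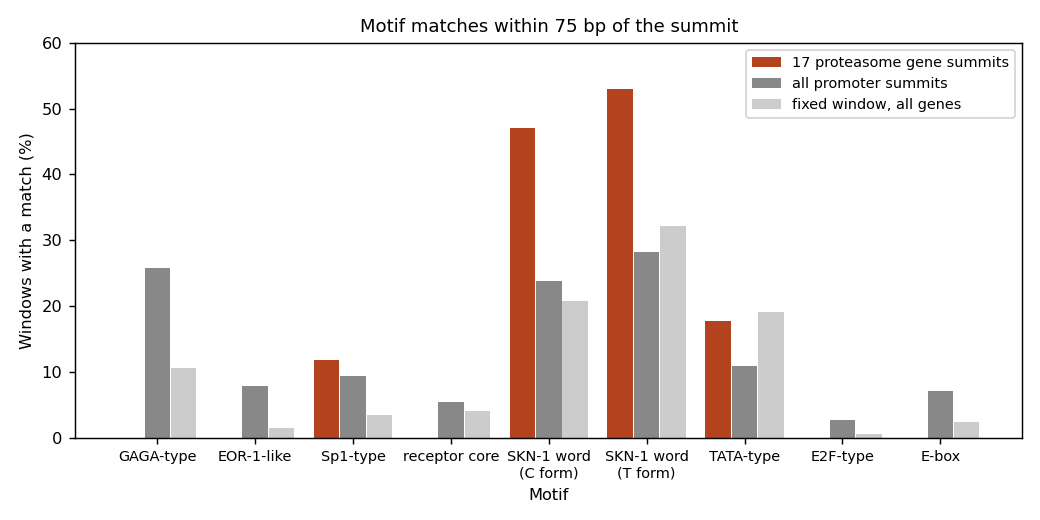
Share of windows with a match to each of the 9 fixed motifs within 75 bp, for the 17 proteasome gene summits, the 1645 promoter summits, and a window of the same length 219 bp upstream of each of the 19973 genes. Both SKN-1 words are highest at the proteasome genes, at 47.1% and 52.9%, and the GAGA-type word is at 0 there.

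Other genes of the ubiquitin-proteasome pathway, taken from a list of 47 symbols of which 46 were matched, had a thresholded summit in 14 cases (30.4%), against 10.1% of all genes. The list was drawn up with earlier results of these data known, so this contrast has no independent standing. Their signals ran from 81.3 to 1579 with a median of 180, above the 87.5 of the subunit genes. The highest was at tasp-1, a threonine protease gene that is not part of the proteasome (1579, rank 21, with 596 in replicate 1 and 963 in replicate 2). It was followed by cdc-48.1, the ATPase that extracts ubiquitinated proteins (1214, rank 32, with 444 in replicate 1 and 701 in replicate 2). Without tasp-1 the count was 13 of 45 (28.9%). Proteins that act on the proteasome itself were represented by ecps-1, ubh-4, usp-14 and aip-1. The gene of ecps-1, an Ecm29-like factor, had 2 summits (the higher with 362, rank 282, 777 bp upstream). That of ubh-4, a deubiquitinase of the regulatory particle, had a signal of 180 (rank 959). For usp-14, another such deubiquitinase, there were 2 summits (the higher with 82.8, rank 2727, 896 bp upstream). The aip-1 peak had 86.6 (rank 2596). The shuttle factor genes ubql-1 (328, rank 335) and rad-23 (81.3, in the peak it shares with rpn-12) were also among the 14. The ubiquitin-conjugating side was represented by uba-1, the ubiquitin-activating enzyme (152, with no partner in replicate 1), ubc-3, a conjugating enzyme (214), cul-4, a cullin (180), and ufd-2, a chain elongation factor (89.9). The remaining 2 were ubq-2, a ubiquitin fusion gene (183), and ubxn-2, a cofactor of CDC-48 (147). The other 32, skn-1 itself among them, had no thresholded summit in the window. Apart from rad-23, whether the pathway peaks also lie in the windows of other genes is not given here.

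By chromosome, 5 of 7 members on II, 4 of 8 on III, 3 of 5 on V, 2 of 3 on IV and 3 of 10 on I had a thresholded summit, and X held no member. Over all genes the shares were 9.68% on II, 14.7% on III, 7.45% on V, 8.53% on IV and 11.7% on I. Expression was not measured in these samples, and a summit in a promoter window does not show that NHR-43 regulates the gene.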

How the data were processed

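ChIP-seq peak lists on ce11 were used from 2 biological replicates of NHR-43-GFP L3 larvae. Per the deposited notes, the authors called a relaxed list on each replicate and on both alignments pooled, and made the thresholded list (3889 peaks, 19 of them mitochondrial) from these by irreproducible discovery rate. Neither caller nor aligner is named in the sources used here. The deposited signal of each peak is the authors' own value, whose scale belongs to its list, and read depth is unknown. Summits (start plus offset) were assigned to Ensembl release 115 genes of WBcel235, whose chromosome lengths hold all ce11 peaks. A replicate's nearest summit within 100 bp was taken as the partner. Motifs were searched in the WBcel235 genome on both strands. Python 3.11.15, pandas 2.3.3 and numpy 2.4.6 were used, and the window assignment was checked on simulated summits. Every member is named. The members, the pathway list and the motifs were chosen with earlier results of these data known. ce10 lists were not used here.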

Additional observations from a re-analysis of the deposited data

How the results depend on the processing

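The count of 17 proteasome genes stayed within 1.5 times of its value when the assignment of summits was changed. It was 13 with a narrower window (39.4%, against 7.69% of all genes), losing pas-1, pas-5, rpn-8 and rpt-3. A wider window gave 18 (54.5%, against 13.7%), and the nearest 5' end within 2000 bp gave 14 (42.4%, against 10.8%). With the 5' ends of all transcripts the count was 17 (51.5%, against 10.9%). It was 8 with the 1944 highest thresholded peaks (24.2%, against 5.85%) and 27 with the relaxed pooled list (81.8%, against 34.8%). With the highest peaks of either replicate alone it was 11 (33.3%, against 9.81% in replicate 1 and 9.52% in replicate 2). The cause of the loss in single replicates was not tested. The count of 15 peaks with partners in both replicates was 12 at 50 bp and 15 at 200 bp, and 8 among the highest peaks alone. The median signal of 87.5, below the 120 of all promoter peaks, was above it at 131 in the narrower window and 128 in the wider one. The 120 was not recomputed for those windows, which do not hold the same set of member peaks. The count of 14 pathway genes was 30 with the relaxed pooled list and 10 to 16 under the other alternatives. For each setting the share over all genes is the one given above. The nearest-end, transcript, relaxed and single-replicate counts of the pathway genes were added after the data were seen. Of the 18 motif counts at other window sizes, 4 moved by over 1.5 times: within 150 bp TATAAA had 8 in place of 3, GAGAGA 1 in place of 0 and AGGTCA 1 in place of 0, and within 50 bp CCGCCC had 1 in place of 2. Of the other 14, 8 were 0 in both windows and show nothing of stability. No paired analysis was possible because there is 1 group. Read depth is not given, so no interval on a signal could be had.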

Other observations

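The words counted here were chosen after the summit sequences had been seen, so the counts have no independent standing. TCATCAT, on either strand, occurred within 75 bp of 5 of the 17 proteasome gene summits (29.4%), those of rpn-3, rpn-7, rpt-2, rpt-3 and rpt-6, against 5.59% of the 1645 promoter summits. In the 500 bp upstream of the 5' end, peaks set aside, 13 of the 33 proteasome genes held it (39.4%), against 12.3% of the 19973 protein-coding genes. These 13 divide into 6 of the 17 genes with a thresholded summit (35.3%) and 7 of the 16 without one (43.8%). The 7 without a summit are pas-2, pas-7, pbs-4, pbs-5, pbs-7, rpn-1 and rpt-4. The word was therefore found upstream of proteasome genes both with and without an NHR-43 summit, and the difference in share was not tested. It contains ATGAT on the other strand, so the counts overlap with those of the shorter words.

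The extended forms TTGTCAT and TTATCAT, chosen at the same time, were found at 5 of 17 summits (29.4%), those of rpn-2, rpn-7, rpn-11, rpn-12 and rpt-2, against 6.87% of promoter summits. The shortened rpn-11 sequence printed above does not hold either form, because the count used the full window. In the fixed windows, 4 of 33 members held one (12.1%), against 7.78% of all genes.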
